A study of Mus musculus with 8 samples.

Results

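The amino acid transporter genes are the autosomal protein-coding genes of the mouse whose symbol begins with Slc1a, Slc3a, Slc6a, Slc7a, Slc36a, Slc38a or Slc43a. This rule uses names and no measured value, and it found 60 of 20665 autosomal protein-coding genes. Slc7a6os meets it by its symbol, although it is not a carrier. CpG methylation was read in each gene and 5 kb beyond either end, at CpGs that had 10 or more reads in each library. That gave 1268 of 441994 shared CpGs, in 52 of the 60 genes. The carriers were read in 4 roles: 22 broadly used nutrient carriers, 18 neural carriers, 11 epithelial and osmolyte carriers of kidney and gut, and 9 others.

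The DNA came from nephron progenitor cells of mouse embryonic kidneys at stage E17.5, sorted by flow cytometry for the green fluorescence of a Six2-EGFP/cre transgene. In 4 libraries the dams had received 70% of the average daily intake during pregnancy (calorie restricted diet), and in the other 4 the dams were on an unrestricted diet. Embryos of both groups were heterozygous for the transgene on the outbred CD1 background, from transgenic males and wild-type CD1 females aged 8 to 10 weeks, so the controls carry it too. The transgene marks cells with Six2 promoter activity, embryos were not separated by sex, and nothing in the labels says which or how many litters entered a library. P-values therefore compare these libraries and not litters. They measure the spread between libraries or, where the estimated spread was below it, the counting noise of reads.

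Amino acid carriers of these families sit in the cell membrane or in organelle membranes and take up, release or exchange amino acids, often with sodium or against another amino acid. Some are used by nearly every growing cell, such as the leucine exchanger made of Slc7a5 and its heavy chain Slc3a2, and others end transmission at synapses. In the mature kidney, tubule cells use a further group to recover amino acids from the filtrate. In mammalian DNA, CpG-rich gene starts are mostly unmethylated whether or not the gene is used, while CpG-poor DNA inside genes is mostly methylated.

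Reduced representation bisulfite sequencing reads the CpG-rich fragments that a restriction enzyme leaves, so CpGs on a fragment share reads and most of a gene is not seen. Depth was 16045992 to 32054622 reads over CpG cytosines in restricted libraries and 20863822 to 37305007 in unrestricted ones. In restricted libraries 1 and 2 the unmethylated CpGs drew more of the reads: the level over all reads lay 2.24 and 3.28 points under the plain mean over CpGs there, against 0.575 under to 0.817 over it in the other 6 libraries. Every pair of libraries differed by more than counting noise. Gene ends of the progenitor genes Six2, Pax2, Wt1 and Sall1 had at most 0.246% methylation in any library. Those of the stromal genes Foxd1 and Meis1 had at most 0.140%, so these levels do not separate progenitors from stroma. Not measured were the ends of Osr1 (progenitor), Ret, Calb1 and Gata3 (ureteric bud), Pecam1, Cdh5 and Kdr (endothelium), and Ptprc and Spi1 (blood). In the text below a CpG-mean level is the plain mean over a unit's CpGs and a read level is methylated reads over all reads in it. Library values are given in the order of replicates 1 to 4, and errors are SD over the 4 libraries of a group.

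Ends of transporter genes were nearly free of methylation in progenitors of both diets. A gene-end window spanned 1000 bp outside and 500 bp inside the end with more measured CpGs, and 28 transporter genes had such a window with at least 3 CpGs. Of these, 25 lay below 5% and 24 below 1% (89.3% and 85.7%, against 90.2% and 83.7% of 12409 gene ends in all). Ends and bodies counted over all genes here include long non-coding RNA genes, whereas the transporter genes are all protein-coding. Among nutrient carriers 11 of 12 windows lay below 5%, among neural carriers 10 of 11, among epithelial carriers 1 of 1 and among the others 3 of 4. No methylated read was seen in any library in the windows of Slc7a5, the leucine exchanger, Slc7a6, an exchanger of cationic and neutral amino acids, or Slc36a1, a proton-coupled carrier. Slc38a2, a sodium-coupled carrier of small neutral amino acids such as glutamine and alanine, had a CpG-mean level of 0.0737 ± 0.0554% in restricted and 0.0756 ± 0.0532% in unrestricted libraries over 48 CpGs.

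Neural carriers were no exception at their ends, although their known work is in nerve tissue. The window of Slc1a2, the main glutamate carrier of astrocytes, had 0.470 ± 0.561% in restricted and 0.189 ± 0.218% in unrestricted libraries. Slc1a3, another glial glutamate carrier, had 0.115 ± 0.133% in restricted and 0.113 ± 0.149% in unrestricted libraries. The lowest neural window of all, by read level, was that of Slc1a1, a neuronal and kidney glutamate carrier, with methylated reads in restricted library 3 alone. Slc6a20a, a carrier of proline and other imino acids and the sole epithelial gene with a window, had 0.495 ± 0.401% in restricted and 0.226 ± 0.297% in unrestricted libraries.

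Windows above 5% belonged to Slc38a9, Slc38a8 and Slc6a16. The strand of a gene was known for 44 of the 60, and with it the window of Slc38a9, a lysosomal arginine-sensing protein, and that of Slc38a8, a glutamine carrier, were placed at the 3′ end, with 3 CpGs each. Slc38a9 had 42.3 ± 7.79% there in restricted and 38.9 ± 7.01% in unrestricted libraries, and Slc38a8 had 30.5 ± 2.63% in restricted and 27.6 ± 4.59% in unrestricted libraries. Of the 18 windows at a known 5′ end, 17 lay below 5%, and of 8 with no strand given, 8 did. The exception at a 5′ end was Slc6a16, an orphan member of the neurotransmitter carrier family, with 4.63 ± 0.883% in restricted and 6.61 ± 1.02% in unrestricted libraries over 23 CpGs.

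**Figure D1:**
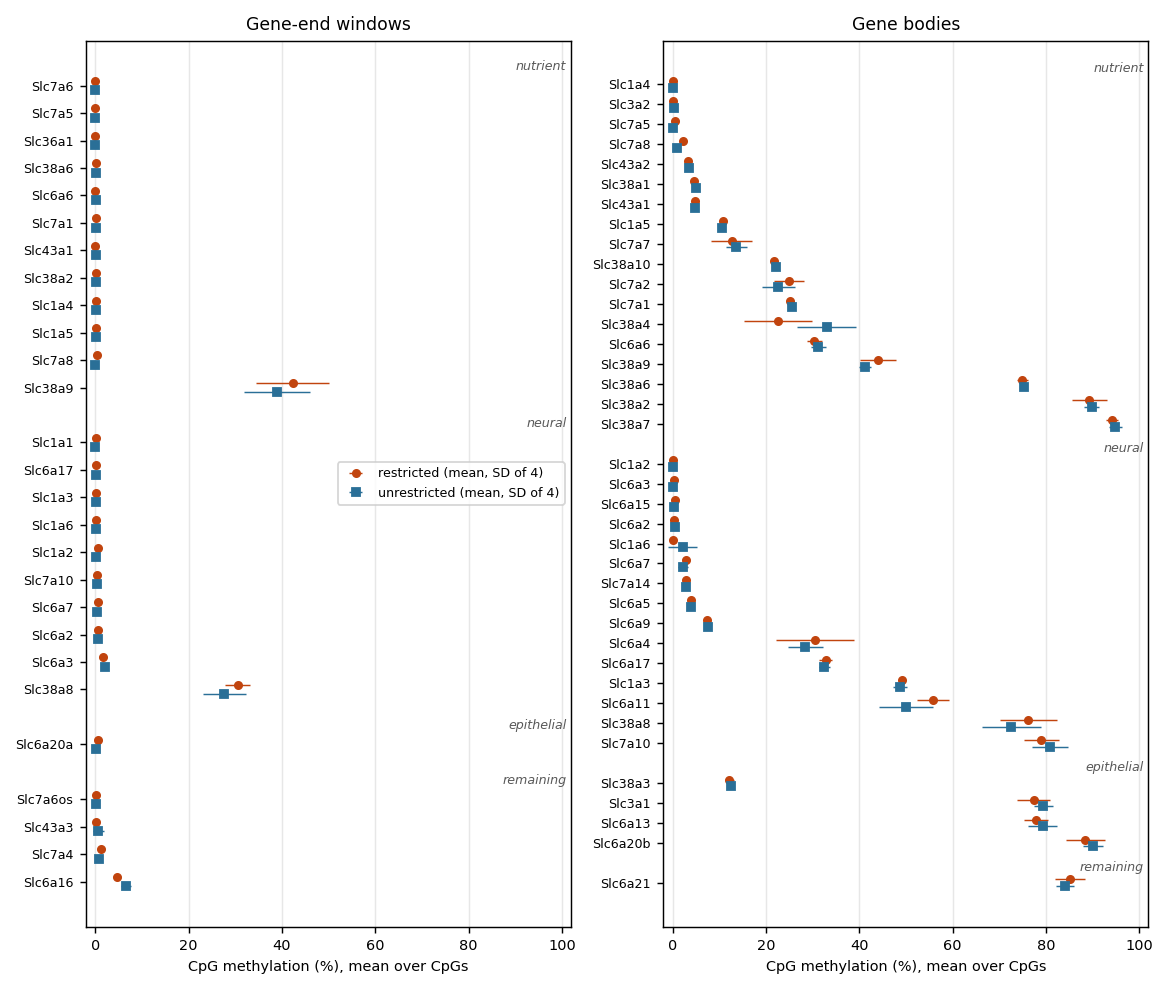
CpG-mean methylation of the gene-end window (left) and the gene body (right) of the transporter genes reported here with at least 3 shared CpGs there, grouped by role; circles are restricted and squares unrestricted means of 4 libraries, with SD. The windows shown lie below 5% except those of Slc38a9, Slc38a8 and Slc6a16, whereas bodies run from near 0% in Slc1a4 to 94.5% in Slc38a7.

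RefSeq start sites give the sequence behind these levels. Of 65 windows of 300 bases around annotated starts, 250 before and 50 after, belonging to 44 of the 60 genes, 19 held at least 3 measured CpGs, and 16 of those 19 lay below 5% (84.2%, against 96.8% of 6699 such windows of all genes). Several of these windows belong to the same gene, so they were not tested. Windows with at least 3 measured CpGs had a median of 25 CG in the sequence and those with no measured CpG had 7, so CpG-poor starts are missing from these values. The next 2 sequences are shown because they are nutrient carrier starts with almost no methylation, and the 3 after them because they are the starts above 5%. Each runs 5′ to 3′ on the strand of the gene, from RefSeq with the build GRCm38.p6, the coordinates of mm10, with the CpGs measured in all 8 libraries in capitals.
Slc38a2, chr15:96699679-96699978, minus strand: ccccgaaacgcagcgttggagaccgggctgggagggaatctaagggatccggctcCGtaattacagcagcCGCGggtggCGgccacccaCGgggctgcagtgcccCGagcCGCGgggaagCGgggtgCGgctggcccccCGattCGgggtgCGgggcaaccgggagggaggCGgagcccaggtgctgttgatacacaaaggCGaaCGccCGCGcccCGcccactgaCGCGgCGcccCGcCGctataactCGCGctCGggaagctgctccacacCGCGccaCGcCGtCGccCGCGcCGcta
Slc3a2, chr19:8713848-8714147, minus strand: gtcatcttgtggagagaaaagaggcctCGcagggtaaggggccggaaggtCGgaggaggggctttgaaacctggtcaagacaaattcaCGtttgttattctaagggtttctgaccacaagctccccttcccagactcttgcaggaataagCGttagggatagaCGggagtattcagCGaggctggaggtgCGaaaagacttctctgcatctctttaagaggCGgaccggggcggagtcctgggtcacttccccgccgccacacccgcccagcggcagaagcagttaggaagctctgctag
Slc6a16, chr7:45240503-45240802, plus strand: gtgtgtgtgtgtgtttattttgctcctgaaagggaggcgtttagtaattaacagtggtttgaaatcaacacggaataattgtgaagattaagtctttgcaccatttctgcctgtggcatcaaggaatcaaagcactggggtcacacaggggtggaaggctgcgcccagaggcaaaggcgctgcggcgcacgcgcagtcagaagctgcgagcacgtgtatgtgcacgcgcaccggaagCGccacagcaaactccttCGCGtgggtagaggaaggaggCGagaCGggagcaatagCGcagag
Slc6a9, chr4:117849100-117849399, plus strand: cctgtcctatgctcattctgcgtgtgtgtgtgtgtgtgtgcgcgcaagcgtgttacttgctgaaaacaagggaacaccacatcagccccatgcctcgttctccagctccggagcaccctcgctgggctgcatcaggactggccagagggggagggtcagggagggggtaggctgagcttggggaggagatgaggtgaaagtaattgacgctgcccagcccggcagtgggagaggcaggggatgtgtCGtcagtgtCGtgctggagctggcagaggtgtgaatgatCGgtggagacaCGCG
Slc7a7, chr14:54410154-54410453, minus strand: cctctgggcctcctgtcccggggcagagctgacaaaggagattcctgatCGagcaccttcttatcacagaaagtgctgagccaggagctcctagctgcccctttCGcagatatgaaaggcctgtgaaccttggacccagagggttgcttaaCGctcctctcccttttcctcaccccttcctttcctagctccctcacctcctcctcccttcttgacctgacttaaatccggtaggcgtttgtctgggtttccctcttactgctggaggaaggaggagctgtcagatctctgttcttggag

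The Slc38a2 start holds 41 CG, of which 35 were measured, and its CpG-mean level was 0.101 ± 0.0760% in restricted and 0.0635 ± 0.0778% in unrestricted libraries. The start of Slc3a2, the heavy chain that several leucine and cationic carriers need at the cell surface, holds 15 CG with 8 measured. It had no methylated read in restricted libraries, and in unrestricted ones it was at 0% except for 0.266% in library 4. The Slc6a9 start shown lies inside the gene and is one of 3 annotated starts of this glycine carrier. It holds 14 CG with 5 measured, and had 28.2 ± 2.58% in restricted and 29.8 ± 2.81% in unrestricted libraries. An inner start of Slc7a7, a carrier that exports arginine and lysine from kidney and gut cells, holds 6 CG with 3 measured and had 12.3 ± 7.02% in restricted and 13.8 ± 3.93% in unrestricted libraries. Another Slc7a7 start, farther out, had 2.97 ± 1.68% in restricted and 2.27 ± 1.31% in unrestricted libraries.

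The 5 measured CpGs at the inner Slc6a9 start, which share reads, did not differ the same way. At position 117849346 the level was 16.2, 15, 12.5 and 12% in restricted libraries, against 7.14, 10.6, 0 and 8.70% in unrestricted libraries. At position 117849355, the next CpG, it was 5.26, 0, 0 and 0% in restricted libraries, against 4.76, 10.6, 6.25 and 13.0% in unrestricted libraries. The first was thus higher with restriction in every library, with no overlap of the groups, and the second was lower on average with one restricted library inside the unrestricted range. Neither passed the test (adjusted p = 0.622 for each), and each rests on 16 to 47 reads per library.

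Within 3 kb of an annotated 5′ gene end, most measured CpGs lay below 5%, also beyond 500 bp. This end is the outer limit of the gene, and RefSeq starts can lie farther inside. Starts of Slc43a1 (84840323, gene end 84838855) and Slc43a2 (75531694 and 75532112, gene end 75529915) stand among the CpGs counted as farther out. The counts thus do not show how far low methylation reaches from a start. Of the 143 CpGs of nutrient carriers within 500 bp of the 5′ gene end, 141 lay below 5%, and of 186 farther out, 169 did. The 2 exceptions within 500 bp are both in Slc38a9, at 209 and 386 bases inside its 5′ gene end, with 81.6 and 81.0% in restricted and 75.1 and 75.3% in unrestricted libraries. Its RefSeq start lies at 112660766, farther inside than these CpGs, with the gene end at 112656189. They therefore do not describe the start of Slc38a9. For neural carriers the counts were 109 of 110 CpGs within 500 bp and 164 of 174 farther out. Most of these CpGs stand in CpG-rich fragments, which the assay favours.

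**Figure D2:**
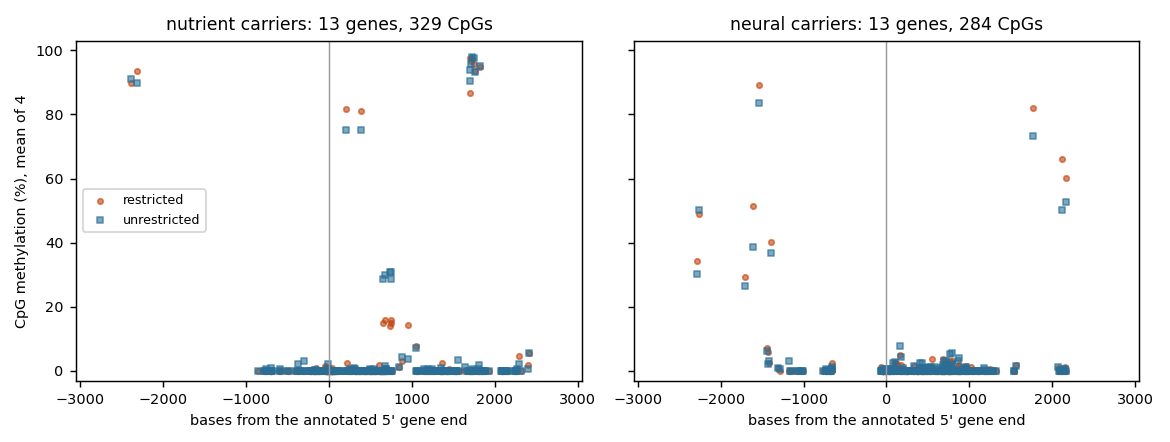
Methylation of each shared CpG (percent, mean of 4 libraries) against its distance in bases from the annotated 5′ gene end, for 13 nutrient (left) and 13 neural (right) carrier genes; negative distances lie outside the gene, circles are restricted and squares unrestricted libraries. Most CpGs of both roles lie near 0% in both diets. The nutrient CpGs at 14.1 to 30.7% just inside the gene end belong to Slc38a4, with 1 CpG of Slc7a8 beside them. The 2 above 75% within 500 bases of the gene end belong to Slc38a9, whose RefSeq start lies farther inside.

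Inside the genes the levels spread over nearly the whole range. Bodies, taken as the gene without 500 bp at each end, held at least 3 CpGs in 39 transporter genes, with a median CpG-mean level of 21.9%, against 13.8% over 11576 gene bodies in all. Of the 39, 15 lay below 5% (38.5%, against 39.3% of all), and 20 lay above 20% (51.3%, against 44.3%). Neural carriers had a median of 5.70% with 8 of 16 bodies below 5%, and nutrient carriers had a median of 17.52% with 7 of 18 below 5%. None of the 4 epithelial bodies lay below 5%, and their median was 78.5%. These are levels of the few CpGs covered, with medians of 7 per neural, 13.5 per nutrient and 6 per epithelial body, and the roles were not tested against each other.

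Bodies near 0% at the CpGs with 10 or more reads were found in both main roles. The 13 body CpGs of Slc1a4 all lie 500 to 675 bases inside its 5′ gene end. The 34 of Slc1a2 all lie 685 to 1327 bases inside, so both levels describe DNA near the gene end and not the whole body. The Slc3a2 body includes the start printed above. Among nutrient carriers, Slc1a4, an exchanger of alanine, serine and cysteine, had 0% in restricted and 0.120 ± 0.240% in unrestricted libraries, Slc3a2 had 0.146 ± 0.292% in restricted and 0.241 ± 0.168% in unrestricted libraries, and Slc7a5 had 0.534 ± 0.851% in restricted and 0.108 ± 0.216% in unrestricted libraries. Among neural carriers, Slc1a2 had 0.114 ± 0.135% in restricted and 0.0672 ± 0.105% in unrestricted libraries over 34 CpGs. At the other end stood Slc38a7, a glutamine carrier of lysosomes, with 94.1 ± 1.25% in restricted and 94.9 ± 1.35% in unrestricted libraries. Slc38a2 had 89.3 ± 3.72% in restricted and 89.8 ± 1.56% in unrestricted libraries over 4 body CpGs, beside the unmethylated start printed above.

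The highest neural body was that of Slc7a10, a neuronal carrier of small neutral amino acids, with 79.1 ± 3.70% in restricted and 80.9 ± 3.81% in unrestricted libraries. Slc1a3 had 49.1 ± 0.491% in restricted and 48.8 ± 1.55% in unrestricted libraries. For Slc6a4, the serotonin carrier, the levels were 30.5 ± 8.46% in restricted and 28.4 ± 3.69% in unrestricted libraries over 7 CpGs. The cationic carrier Slc7a1, which takes up arginine and lysine, had 25.2 ± 0.891% in restricted and 25.5 ± 0.693% in unrestricted libraries. Slc38a9 had 44.0 ± 3.87% in restricted and 41.2 ± 1.38% in unrestricted libraries.

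Several body levels depended on the read minimum, which decides the CpGs kept. With CpGs of 5 or more reads, the mean over the 8 libraries was 19.5% for Slc7a5 and 15.3% for Slc1a2, against 0.321% and 0.0906% at 10 reads. At the same minimum it was 56.8% for Slc7a1 and 56.4% for Slc38a2, against 25.4% and 89.6% at 10 reads. With CpGs of 20 or more reads, Slc7a1 had 2.41%, Slc38a9 20.1% and Slc6a4 10.5%, against 25.4, 42.6 and 29.5% at 10 reads. The body levels given here thus describe the CpGs that passed 10 reads and not the whole gene.

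Among epithelial carriers of the mature tubule, 3 of 4 bodies were highly methylated, over 4 to 8 CpGs each. Slc3a1, the heavy chain of the cystine carrier, had 77.4 ± 3.54% in restricted and 79.5 ± 1.99% in unrestricted libraries over 4 CpGs. Slc6a20b, a relative of the imino acid carrier Slc6a20a, had 88.5 ± 4.11% in restricted and 90.1 ± 2.10% in unrestricted libraries. The body of Slc38a3, a glutamine carrier of kidney and liver, was the lowest of this role, with 12.1 ± 0.986% in restricted and 12.5 ± 0.553% in unrestricted libraries over 25 CpGs. With Slc38a3 holding most of them, the mean over the 41 epithelial body CpGs was 39.8 ± 1.46% in restricted and 40.7 ± 0.489% in unrestricted libraries. Slc6a21, the sole body among the other genes, had 85.2 ± 3.24% in restricted and 84.1 ± 1.99% in unrestricted libraries. Slc7a9, the partner of Slc3a1, had no shared CpG, and neither had Slc7a12, Slc7a13, Slc6a12, Slc36a4, Slc36a3, Slc6a18 and Slc6a19. Slc7a11, the cystine-glutamate exchanger, had 2 CpGs, at 4.93 ± 1.70 and 3.68 ± 2.98% in restricted and 7.06 ± 4.93 and 3.61 ± 4.31% in unrestricted libraries.

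Averaged over their CpGs, transporter genes differed between the diets by less than the larger group SD in bodies and, with every window counted, at ends. Over 443 gene-end CpGs the mean was 0.897 ± 0.106% in restricted and 0.976 ± 0.0399% in unrestricted libraries, beside 1.63 ± 0.0380% in restricted and 1.66 ± 0.0338% in unrestricted libraries over all genes. Over 732 body CpGs it was 16.2 ± 0.194% in restricted and 16.3 ± 0.244% in unrestricted libraries, beside 17.9 ± 0.156% in restricted and 18.0 ± 0.128% in unrestricted libraries over all genes. Nutrient bodies averaged 13.7 ± 0.190% in restricted and 13.8 ± 0.292% in unrestricted libraries, and neural bodies 12.1 ± 0.237% in restricted and 12.0 ± 0.144% in unrestricted libraries. In each of the 8 libraries the nutrient body mean was above the neural one (13.4 to 14.2% in nutrient carriers, against 11.8 to 12.3% in neural carriers). The same 409 nutrient and 265 neural CpGs were read in each library, so agreement of the libraries adds no support for a difference between the roles. At gene ends the nutrient mean was 0.724 ± 0.112% in restricted and 0.696 ± 0.119% in unrestricted libraries, and the neural mean 0.828 ± 0.0712% in restricted and 0.820 ± 0.0187% in unrestricted libraries.

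Those gene-end means rest largely on the 3′ windows of Slc38a9 and Slc38a8. Without windows at a known 3′ end, the 437 CpGs of the other transporter ends had 0.499, 0.362, 0.447 and 0.329% in restricted libraries, against 0.468, 0.579, 0.445 and 0.638% in unrestricted libraries. The groups overlapped, while the difference of the means, -0.123 points, was larger than either SD (0.0777 in restricted and 0.0915 in unrestricted libraries). Much of it came from Slc6a16, which holds 23 of these CpGs and differed by -1.98 points as a CpG mean. Nutrient ends differed by -0.0254, neural ends by -0.0442 and the 1 epithelial end by 0.269 points. Over all genes, such ends had 1.28 ± 0.0310% in restricted and 1.31 ± 0.0304% in unrestricted libraries. Nutrient ends had 0.0475, 0.0591, 0.0739 and 0.0608% in restricted libraries, against 0.0939, 0.0747, 0.0941 and 0.0805% in unrestricted libraries. Every restricted library's nutrient mean lay below every unrestricted one, the closest at 0.0739 and 0.0747%. The window of Slc1a4 holds 47 of these 188 CpGs and differed by -0.142 points as a CpG mean. It had 0.0814, 0.0546, 0 and 0% in restricted libraries, against 0.281, 0.0426, 0.250 and 0.131% in unrestricted libraries, and the groups overlapped. Whether the nutrient means stay apart without this window was not tested. Neural ends had 0.361, 0.222, 0.317 and 0.204% in restricted libraries, against 0.260, 0.346, 0.267 and 0.407% in unrestricted libraries, and the groups overlapped. A mean over genes chosen in this way was given no p-value. The nutrient levels are of the order of the calls at mitochondrial CpGs, which are normally unmethylated, at 0.0242 to 0.0854% in restricted and 0.0221 to 0.0695% in unrestricted libraries. The neural means and those over the 437 CpGs lie above these calls.

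To ask whether dietary restriction went with a change at any transporter gene, a logistic model with a diet term was fitted to every unit of the genome, with Benjamini-Hochberg adjustment over all units of a kind and a call at an adjusted p under 0.05. None of the 96 tested transporter tiles of 1 kb was called (0.0177% of 33897 tiles were), none of 25 gene-end windows (0.0898% of 11142), none of 39 bodies (0.00899% of 11118) and none of 549 single CpGs (0.0997% of 191637). At an unadjusted p under 0.05 the counts were 7 of 96 tiles (6.32% of all), 1 of 25 windows (6.95% of all), 3 of 39 bodies (11.1% of all) and 25 of 549 CpGs (5.62% of all). These come to 7.29, 4.00, 7.69 and 4.55% of the transporter units. With 1 library left out, these unadjusted counts ran from 2 (without restricted library 1) to 10 tiles (without restricted library 3 or 4), from 0 (without unrestricted library 2) to 2 windows (without restricted library 1 or 2), from 1 (without restricted library 4) to 7 bodies (without restricted library 3) and from 22 to 32 CpGs. edgeR's quasi-likelihood test and limma on M-values also called 0 units of each kind. At an unadjusted p under 0.05 edgeR gave 6 tiles, 0 windows, 6 bodies and 16 CpGs, and limma 4, 1, 3 and 32. The shares of all units at these leave-one-out, edgeR and limma settings are not given here. These counts therefore cannot be read as many or few for transporter genes. The dispersion fixed at its median called 2 tiles, 1 window and 6 bodies, with 577, 180 and 1143 called in all.

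Differences pointed both ways. The restricted mean was the lower one in 56 of 96 tiles (51.9% of all tiles), 13 of 25 windows (52.2% of all), 23 of 39 bodies (62.2% of all) and 303 of 549 CpGs (51.6% of all). Groups did not overlap in 2 tiles (2.26% of all), no window (1.65% of all), 1 body (4.57% of all) and 6 CpGs (1.80% of all). The 2 tiles are in Slc43a1 and Slc38a7, and the body is that of Slc38a3. The 6 CpGs lie at Slc7a8 (2), Slc38a1, Slc43a1, Slc6a3 and Slc6a9. The median size of a tile difference was 0.359 points in transporter genes and 0.382 points over all tiles.

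Slc43a1 encodes a carrier that lets leucine and other branched-chain amino acids through the membrane. Its tile chr2:84863001-84864000, which spans the 3′ end of the gene, had read levels of 96.97, 96.77, 98.3 and 100% in restricted libraries, against 92.9, 91.7, 91.0 and 95.7% in unrestricted libraries. Every restricted library lay above every unrestricted one. The means were 98.0 ± 1.49% in restricted and 92.8 ± 2.07% in unrestricted libraries, and the difference of 5.21 points did not pass the test (adjusted p = 0.735). The tile holds 3 CpGs with 54 to 144 reads per library. In the same gene, the CpG at position 84851338 had 5.13 and 8.33% in restricted libraries 1 and 2 and 0% in the other 6.

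Slc38a7 differed the other way in its tile chr8:95845001-95846000, inside the gene. Read levels were 93.9, 92.5, 95 and 95.6% in restricted libraries, against 96.6, 98.8, 100 and 96.5% in unrestricted libraries, again with no overlap. The difference of -3.72 points did not pass the test (adjusted p = 0.766). Of its 4 CpGs, the one at 95845883 was 100% methylated in all 4 unrestricted libraries and had 96, 90, 100 and 88.2% in restricted ones, from 10 to 40 reads per library.

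Slc7a8 encodes the light chain of a further neutral amino acid exchanger, which is used in kidney epithelium. At the CpG chr14:54780931, inside the gene 955 bases from its 5′ end, the level was 12.8, 17.6, 16.7 and 10% in restricted libraries, against 5.17, 1.89, 2.86 and 4.55% in unrestricted libraries. The groups did not overlap, and the means were 14.3 ± 3.53% in restricted and 3.62 ± 1.51% in unrestricted libraries (adjusted p = 0.460). Among transporter CpGs this was the smallest p. The neighbouring CpGs at 879 and 848 bases from the end, which had the same numbers of reads in each library, showed 3.23 ± 2.41 and 1.27 ± 1.46% in restricted libraries, against 4.50 ± 4.85 and 1.15 ± 1.40% in unrestricted libraries. The 9 body CpGs, the one at 54780931 among them, all lie 631 to 955 bases inside the gene, so their level does not describe the whole body. Together they had 2.25 ± 0.608% in restricted and 1.06 ± 0.442% in unrestricted libraries as read levels (adjusted p = 0.407). With CpGs of at least 5 reads included, the body difference turned to -0.473 points. A second CpG, 54786767, outside the gene, ran the opposite way, with 0.714 ± 1.43% in restricted and 6.63 ± 1.62% in unrestricted libraries. The 5′ window of Slc7a8 had 0.444 ± 0.530% in restricted and 0% in unrestricted libraries (adjusted p = 0.679).

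**Figure D3:**
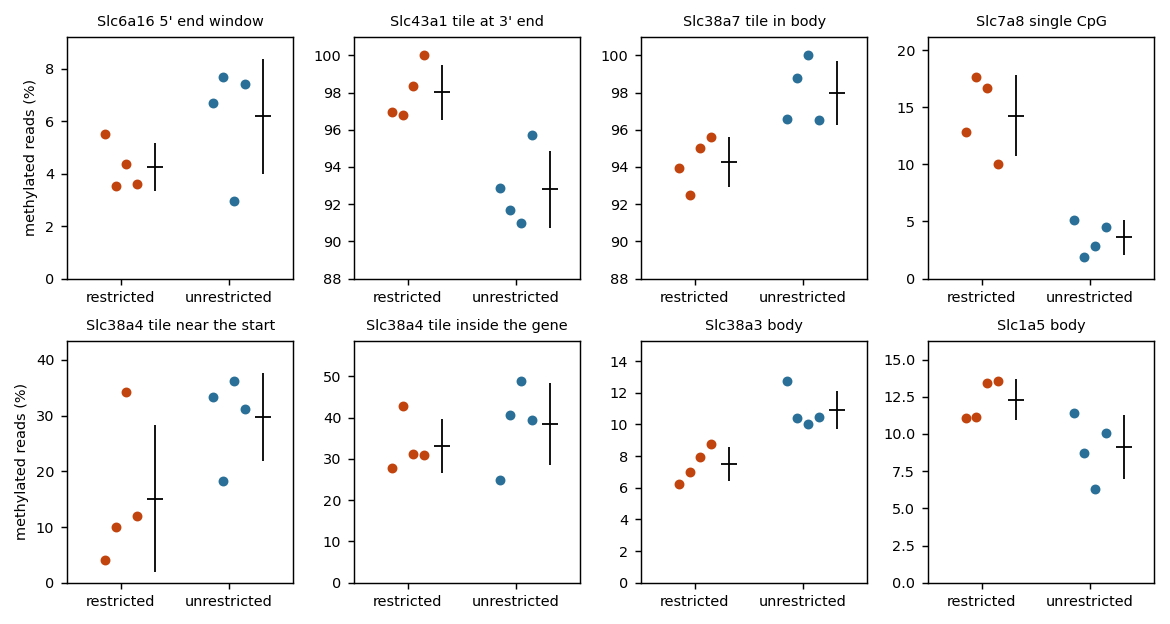
Read level (percent methylated reads) in each of 4 restricted (left) and 4 unrestricted (right) libraries for 8 units of transporter genes, with mean and SD in black; the axes of the Slc43a1 and Slc38a7 panels begin at 88%, the others at 0. Groups do not overlap in the Slc43a1 and Slc38a7 tiles, the Slc7a8 CpG and the Slc38a3 body, and they do in the other 4 panels.

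Slc38a4 is an imprinted gene in mouse, expressed from the paternal copy, and encodes a sodium-coupled carrier of neutral amino acids used in placenta and liver. Partial methylation was read at 9 body CpGs. In the tile chr15:97055001-97056000, whose 5 measured CpGs lie 655 to 752 bases inside the gene from its 5′ end, read levels were 4.17, 10, 34.2 and 12% in restricted libraries, against 33.3, 18.3, 36.2 and 31.2% in unrestricted libraries. Restricted libraries 1, 2 and 4 lay below all unrestricted ones and restricted library 3 lay among them. The means were 15.1 ± 13.2% in restricted and 29.7 ± 7.90% in unrestricted libraries, a difference of -14.7 points that did not pass the test (adjusted p = 0.773). It was the largest difference in size among the 96 tested transporter tiles.

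The 5 CpGs of that tile share their reads, 24, 20, 31 and 15 in restricted and 27, 47, 26 and 25 in unrestricted libraries, so its level rests on few molecules. About 5 kb further into the gene, the tile from 97050001 had 33.2% in restricted and 38.5% in unrestricted libraries on average, and its CpGs ran from 10.9 ± 7.59% in restricted and 13.4 ± 10.2% in unrestricted libraries at 5866 bases to 40.8 ± 11.4% in restricted and 48.7 ± 17.9% in unrestricted libraries at 5869 bases. The body as a whole had 22.6 ± 7.20% in restricted and 33.0 ± 6.36% in unrestricted libraries as CpG-mean levels (read-level test, adjusted p = 0.539). Reads were not separated by parental copy, and the gene model Gm32840 lies within 1 kb of CpGs in the tile near the start.

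**Figure D4:**
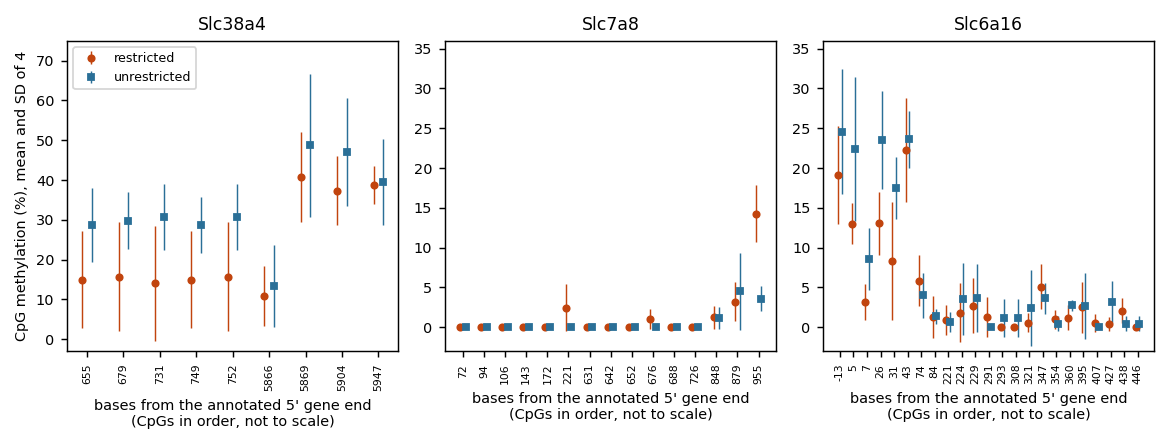
Methylation of each shared CpG (percent, mean and SD of 4 libraries) of Slc38a4, Slc7a8 and Slc6a16 in order of distance from the annotated 5′ gene end, not to scale; circles are restricted and squares unrestricted libraries. The 5 Slc38a4 CpGs nearest the start have lower restricted means, the Slc7a8 CpG at 955 bases stands apart from its neighbours in restricted libraries, and Slc6a16 falls to a few percent within 100 bases of the start.

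Other nutrient carriers had their units of small p at other parts of the gene. Slc38a1, a glutamine carrier, had a tile outside its lower-coordinate end, chr15:96567001-96568000, with 13.9, 19.0, 10.7 and 10.1% in restricted libraries, against 17.7, 12.6, 23.2 and 21.8% in unrestricted libraries (adjusted p = 0.773), and the groups overlapped. Slc7a2, a cationic carrier of arginine and lysine, had 19.0 ± 3.60% in restricted and 14.3 ± 1.66% in unrestricted libraries in a body tile (adjusted p = 0.773). The tile just outside the 5′ end of Slc1a4, chr11:20333001-20334000, had no methylated read in restricted libraries and 0.257, 0, 0.337 and 0.263% in unrestricted libraries (adjusted p = 0.764). The neighbouring Slc1a4 tile, which holds the start itself, had 0.126, 0.113, 0 and 0% in restricted libraries, against 0.181, 0.0733, 0 and 0.0685% in unrestricted libraries (adjusted p = 0.987), and the groups overlapped. A tile of Slc38a9 likewise had none in restricted libraries and 0.813, 0.862, 0 and 0% in unrestricted libraries (adjusted p = 0.773). At the end of Slc6a6, the taurine carrier, the level was 0% in restricted and 0.0851 ± 0.107% in unrestricted libraries (adjusted p = 0.679).

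Among neural carriers the unit of smallest p was a CpG of Slc6a9, described above, and no neural tile, window or body passed an adjusted p of 0.05. At Slc1a7, a glutamate carrier of the retina that is covered by 2 CpGs, the CpG 107970522 had 73.5, 58.3, 75 and 57.1% in restricted libraries, against 38.1, 52.2, 50 and 60.9% in unrestricted libraries (adjusted p = 0.622). At Slc7a10 the CpG 35192476 had 50, 52.9, 49.0 and 62.5% in restricted libraries, against 71.8, 68.6, 68.6 and 57.1% in unrestricted libraries (adjusted p = 0.622). In each of these CpGs the groups overlapped through 1 library or more. The body of Slc1a6, a glutamate carrier of Purkinje cells, had 0.123 ± 0.246% in restricted and 2.10 ± 3.13% in unrestricted libraries, the unrestricted mean resting on 6.63% in library 1 (adjusted p = 0.478). A tile of Slc1a3 had 0.660 ± 0.490% in restricted and 0.114 ± 0.227% in unrestricted libraries (adjusted p = 0.773).

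Slc6a16 had the gene end of smallest p. Its 5′ window had read levels of 5.50, 3.52, 4.36 and 3.60% in restricted libraries, against 6.70, 7.68, 2.95 and 7.42% in unrestricted libraries (adjusted p = 0.679). Unrestricted library 3 lay below the restricted libraries and the other 3 above them. The methylation sat within 50 bases of the start, in the sequence printed above, where the 6 measured CpGs had CpG-mean levels of 16.7, 12.4, 15.3 and 8.30% in restricted libraries, against 15.01, 22.8, 20.5 and 21.9% in unrestricted libraries. From 74 bases inward the means of single CpGs were 5.85% or less in both groups. Restricted to CpGs with at least 20 reads in every library, the window difference was -0.0941 points, against -1.94 points; the start CpGs, with as few as 13 reads in a library, are then left out. Among the other genes, Slc43a3, a nucleobase carrier by current knowledge, had 0.223 ± 0.446% in restricted and 0.616 ± 1.23% in unrestricted libraries, each from a single library, and Slc7a4, a relative of the cationic carriers, had 1.22 ± 0.922% in restricted and 0.712 ± 0.583% in unrestricted libraries (adjusted p = 0.679 for both).

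Several of the larger body differences went with differences in which CpGs the reads came from. The read-level body of Slc38a3 was 6.27, 7.01, 7.94 and 8.76% in restricted libraries, against 12.7, 10.4, 10.0 and 10.5% in unrestricted libraries, with no overlap and the smallest p of the transporter bodies (adjusted p = 0.153). Had each of its 25 CpGs had its mean level over the 8 libraries, the measured coverage alone would have given a difference of -3.12 of the -3.42 points, and the CpG-mean levels differed by -0.352 points. With at least 20 reads per CpG its read-level difference was -0.353 points. For Slc1a5, the main glutamine carrier of many dividing cells, read levels were 12.3 ± 1.36% in restricted and 9.12 ± 2.15% in unrestricted libraries (adjusted p = 0.366), a difference of 3.19 points where coverage alone gave 3.24. Slc43a2, a carrier of branched-chain amino acids, differed by -1.57 points where coverage alone gave -1.53.

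The same held for the bodies of Slc6a17, a synaptic vesicle carrier, at -5.97 points with -6.09 from coverage, of Slc6a6 at -6.15 with -5.39, and of Slc38a6, a carrier of the glutamine family, at 4.66 with 5.43. Coverage alone gave more than 1 point in 15 of the 39 bodies and 2 of the 96 tiles, and in none of the 25 gene ends. It gave 0.260 points in the Slc38a4 body and -0.0735 in that of Slc7a8, whose differences were thus in the CpG levels. In the Slc7a8 body the CpG at 955 bases differed by 10.7 points, and the others by -1.27 to 1.06 points. The median size of the body difference was 1.57 points as a read level and 0.502 points as a CpG mean. CpG means differed by more than 5 points in 2 bodies, Slc38a4 (-10.5) and Slc6a11, a GABA carrier of astrocytes (5.75, with 55.8 ± 3.49% in restricted and 50.1 ± 5.79% in unrestricted libraries), both named here after their values were seen.

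**Figure D5:**
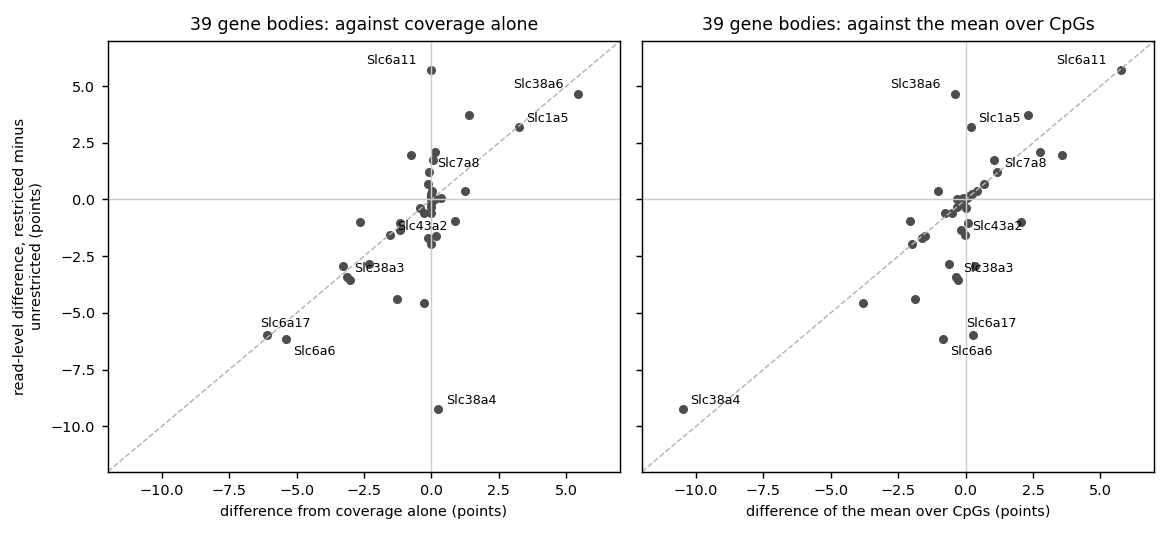
Difference in read level, restricted minus unrestricted in percentage points, of the 39 transporter bodies against the difference that coverage alone gives (left) and against the difference of CpG means (right); dashed lines mark equal values. Slc38a3, Slc1a5, Slc43a2, Slc6a17, Slc6a6 and Slc38a6 lie near the line on the left and near 0 on the right, and Slc38a4 and Slc6a11 the reverse.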

How the data were processed

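Nephron progenitor DNA of 4 restricted and 4 unrestricted libraries was measured by reduced representation bisulfite sequencing. Per the submitters' processing notes, Trim Galore 0.3.3, FastQC, cutadapt, Bismark 0.13.1, methylKit and the build mm10 were used; their order and settings were not stated. The deposited files hold, for each CpG cytosine, a count of covering reads and the percent of them called methylated and unmethylated. Lane and batch of each library are not given in the sources used here.

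Count and percent were multiplied and rounded to give methylated reads, and both strands of a CpG were summed. Used were CpGs with 10 or more reads in each of the 8 libraries, and units (1 kb tiles, 1.5 kb gene-end windows at the CpG-richer end, bodies) held at least 3. RefSeq tables (GRCm38.p6) gave gene positions, without exons, introns or UTRs, and strand through the start sites. All 217 shared CpGs in transporter start windows fall on CG in that sequence. Depth sets the precision: the median shared CpG had 20 to 44 reads per library, and PCR copies cannot be removed.

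Tests were logistic regressions with a likelihood-ratio F test, the dispersion (never under 1) moderated as in limma's squeezeVar, rewritten in Python, fitted over the genome in Python 3.11.15 with numpy 2.4.6, pandas 2.3.3 and scipy 1.17.1, and tested on simulated data. Units that were fully methylated or fully unmethylated in every library got no test. Reads on a shared fragment count once per CpG, so summed reads overstate the molecules. The read minimum decides which CpGs enter a unit, and body levels moved with it. Alternatives used limma 3.58.1 and edgeR 4.0.16 in R 4.3.3, other coverage, CpG and window settings, a replicate block and leaving out libraries. Across the diets, same-number correlations over 5314 tiles ran from -0.0995 to 0.0299, and those of other pairs from -0.0517 to 0.072. With all of them near 0, this check cannot tell whether a replicate number stands for a shared litter or batch.

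Members, roles and lists were chosen with earlier results of these data known. Named were any called units, the 3 tiles, windows, bodies and CpGs of smallest p per direction, the highest and lowest levels per role, and a fixed set (Slc38a4, Slc7a5, Slc3a2, Slc1a5, Slc7a1, Slc7a11, Slc38a2, Slc38a9, Slc1a2, Slc1a3, Slc6a4, Slc3a1, Slc7a9); 1 more gene of this set is counted among the members but not reported here. Others are named as members of a count.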

Additional observations from a re-analysis of the deposited data

Results flagged for a closer look

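In 9 of 58 groups of 4 libraries tested, 1 library stood apart from the other 3 by a gap over Dixon's 95% critical share of the group's range, where chance gives about 1 in 20 groups. In 6 of the 9 the other 3 libraries had no methylated read, so that any methylated call stands apart: 0.369% in the Slc1a1 gene end in restricted library 3, 0.893% in the Slc43a3 gene end in restricted library 2, 2.46% in the same gene end in unrestricted library 4, 0.493% in the Slc1a6 body in restricted library 3, 5.26% at the Slc6a9 CpG in restricted library 1, and 0.455% in the Slc1a3 tile in unrestricted library 1. The Slc38a3 body had a read level of 12.7% in unrestricted library 1, against 10.0 to 10.5% in the other unrestricted libraries. The Slc43a2 body had 4.73% in restricted library 3, against 1.89 to 2.16% in the other restricted libraries. The mean over transporter gene-end CpGs was 1.05% in restricted library 1, against 0.824 to 0.856% in the other restricted libraries.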

How the results depend on the processing

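With the dispersion fixed at its median, 2 tiles, 1 gene-end window (Slc6a16, adjusted p = 0.0156) and 6 bodies were called, among them Slc38a3, Slc1a5, Slc43a2 and Slc1a6. Without unrestricted library 2, 1 CpG was called, at chr18:60994460, outside the gene of Slc6a7, a proline carrier, but within 5 kb of it. It was 25.6 points higher with restriction (adjusted p = 0.000792), against 17.55 points and adjusted p = 0.622 with every library. The share of all CpGs called without that library is not given here. Leaving out each library in turn gave 0 calls for tiles, windows and bodies and 0 to 1 for CpGs. The replicate block, limma on M-values, edgeR, another dispersion prior and, added after seeing the data, limma on mean CpG levels called 0 transporter units. The block left 1 tile, 0 windows, 2 bodies and 3 CpGs at an unadjusted p under 0.05, and 1 of 4 restricted libraries correlated best with its own number. The shares of all units under the block are not given here, so these counts are not set against a background. Of the mean level differences in points, the read-weighted mean moved transporter bodies to -1.60, nutrient bodies to -1.01, neural ends to -0.138 and neural bodies to -1.86. A mean over genes moved transporter ends to 0.158, nutrient ends to 0.287, nutrient bodies to -0.472, neural ends to 0.235 and neural bodies to 0.303, and at least 20 reads moved nutrient bodies to 0.137. The Slc7a8 body reversed to -0.473 at 5 reads, and the Slc43a3 end, which ran from -0.616 to 0.223 with a library left out, turned positive without unrestricted library 4; the cause was not tested. Of the other levels, CpGs of 5 or more reads moved the Slc38a9 gene end to 51.2% and the bodies of Slc38a4 to 36.4, Slc1a5 to 8.47, Slc38a9 to 51.0, Slc1a3 to 65.4 and Slc3a1 to 84.2%. Read depth limits single CpGs most.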
